A study of Sus scrofa with 9 samples.

Results

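Genes of natural killer (NK) cells and other cytotoxic lymphocytes were followed in the whole blood of miniature pigs before and after an oral exposure to azide. Members were the non-control array probes whose gene name was KLRK1, PRF1, GZMB, KLRD1 or HCST, or whose description named granzyme, perforin, NK-lysin, NKG2 or a killer cell lectin-like receptor. The rule found 10 of the 43603 probes on the array, which carry 9 of its 41325 gene names. KLRK1 and PRF1 had 1 probe each and HCST had 2, and no probe carried the name GZMB or KLRD1. The other 6 probes entered by description. They were NK-lysin (gene name NKL, listed as GNLY in the RefSeq gene table), LY49 (killer cell lectin-like receptor subfamily A member 1), KLRF1, a partial match to macaque NKG2-F3 (called NKG2-F3-like here), a partial match to mouse killer cell lectin-like receptor family E member 1 (called KLRE1-like here), and SET, whose description names it as an inhibitor of a DNase that granzyme A activates.

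NK cells and cytotoxic T cells kill infected or abnormal cells by releasing granules that hold perforin, granzymes and NK-lysin onto them. The lectin-like receptors are among the receptors that govern when this happens. KLRK1, also known as NKG2D, recognises stress-induced ligands and signals through the adaptor HCST, also known as DAP10, while KLRD1 (CD94) pairs with NKG2 chains to read MHC class I on the target cell.

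The animals were male Clawn miniature pigs kept specific-pathogen-free, and every group shared this breed, sex and housing. One group of 3 samples was taken before feeding, another of 3 at 6 h and another of 3 at 24 h after azide at 300 µg/kg, stated in the study's design as 0.01 of the LD50. Age is 7 months in 1 label field and 7 weeks in a further one. Nothing in them ties samples of equal replicate number to 1 pig, and p-values here reflect only how far these samples spread, which may be technical in part. No undosed pigs accompany the 6 h and 24 h groups, and each time had its own array slide, so time after azide, time since the first bleed and slide cannot be told apart. Whole blood holds all circulating cells, so fewer cells of a type and less RNA per cell cannot be told apart either.

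RNA was hybridised to 1-colour Agilent arrays, 1 array a sample. A level below is the log2 processed signal minus the array's own 75th percentile, so 0 is the brightness that 75% of probes did not exceed. Levels are compared between arrays for 1 probe and never between probes. Between 39.9% and 56.6% of the 43803 non-control spots on an array were well above background, and none was saturated. Arrays of a group correlated at r 0.936 to 0.985 over the 19783 probes that were tested. Only probes that some time's 3 arrays all measured well above background were tested, which left 19783 probes and 7 of the 10 members. The probes for LY49, KLRF1 and SET were well above background on 0 of 9 arrays and were not tested. Of the 11 genes taken as NK and cytotoxic markers, 6 had a probe under their symbol and all 6 were tested: KLRK1, PRF1, HCST, GNLY, FCGR3A and TYROBP. Probes named NCR1, NKG7, GZMA, GZMB or KLRD1 were not found, and the 6 that were measured are also expressed by cytotoxic T cells or by myeloid cells, so the measured genes describe cytotoxic lymphocytes and their adaptors rather than NK cells alone.

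The receptor probes are shown first because KLRK1 had the largest difference between times among the members. Lectin-like receptors are type II membrane proteins whose outer domain is held together by cysteine bridges, and TGC is 1 of the cysteine codons. Capitals mark a pair of TGC triplets 21 bases apart that the KLRK1, KLRF1 and NKG2-F3-like probes share; the NKG2-F3-like probe is given up to its in-frame stop, as 57 of its 60 bases.
KLRK1: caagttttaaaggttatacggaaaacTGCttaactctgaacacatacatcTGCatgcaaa
KLRF1: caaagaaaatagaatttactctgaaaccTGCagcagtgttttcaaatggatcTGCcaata
NKG2-F3-like: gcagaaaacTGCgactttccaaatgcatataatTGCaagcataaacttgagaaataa
The pattern TGC, then 21 bases of any kind, then TGC occurred as written in 329 of the 43603 probes (0.755%) and on either strand in 585 (1.34%); the NKG2-F3-like probe also holds it on the other strand. A match of this kind describes the letters only. The probe named PRF1, shown because its description is that of a testis transcript and does not name perforin, reads as follows.
PRF1: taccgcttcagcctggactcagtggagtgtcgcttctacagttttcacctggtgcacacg
All 4 sequences come from the deposited array files, written 5′ to 3′. The 2 HCST probes share a run of 54 of their 60 bases, so they are repeat measurements of 1 transcript end and not independent. In the RefSeq gene table of assembly Sscrofa11.1, KLRD1 is the next gene to KLRK1, LY49 stands 7 entries before KLRK1 and KLRF1 15 entries after it on the same chromosome. HCST, PRF1, GNLY and GZMB were not found on the chromosome of KLRK1 in that table.

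At 6 h the 2 lectin-like receptor probes measured well above background on every array, KLRK1 and KLRE1-like, had group means 3.95-fold and 3.40-fold below those before feeding, and 2 of the 3 samples at 6 h accounted for the difference. Neither passed the adjusted threshold with all 9 arrays. KLRK1, the activating receptor NKG2D, read 2.45, 1.64 and 3.05 before feeding, -0.42, 1.97 and -0.36 at 6 h, and 1.50, 2.08 and 2.15 at 24 h (replicates 1, 2 and 3, log2 level). Replicate 2 at 6 h lay inside the range of the samples before feeding, whereas replicates 1 and 3 lay below every sample of the other 2 times. The group means were 2.38 ± 0.71, 0.40 ± 1.36 and 1.91 ± 0.36 (SD, n = 3). KLRK1 thus stood in the order before, 24 h, 6 h. By limma over all tested probes the difference at 6 h was -1.98 ± 0.60 on the log2 scale (SE, 95% interval -3.32 to -0.65), 3.95-fold lower, with a Benjamini-Hochberg adjusted p of 0.100. The difference between 24 h and 6 h was 1.51 (interval 0.17 to 2.85, 2.85-fold higher) with an adjusted p of 0.190, and that between 24 h and before was -0.47 (interval -1.81 to 0.86) with an adjusted p of 0.756. No neighbouring pair in this order passed the threshold of 0.05.

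KLRE1-like, the probe resembling a mouse NK receptor of the same family, followed the same samples. It read 2.16, 1.44 and 2.36 before feeding, -0.04, 1.53 and -0.83 at 6 h, and 1.31, 1.72 and 1.39 at 24 h. Replicates 1 and 3 at 6 h were again the lowest of the 9 arrays, and replicate 2 was within the other times' ranges. The mean difference at 6 h was -1.77 ± 0.52 (interval -2.92 to -0.62), 3.40-fold lower, adjusted p = 0.0949 by limma. At 24 h it was -0.51 ± 0.52 against before, adjusted p = 0.680 by limma.

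NKG2-F3-like, the probe with a partial match to macaque NKG2-F3, was dimmer. It read -0.71, -1.02 and 0.33 before feeding, -2.66, -1.15 and -2.69 at 6 h, and -1.75, -0.71 and -1.45 at 24 h. All 3 samples at 6 h lay below all 3 before feeding, but the probe was well above background on the 3 arrays before feeding, the 3 at 24 h and only 1 at 6 h, replicate 2, so the values of replicates 1 and 3 at 6 h lie near the limit of the scan. It was tested through the times at which it was bright, so neither the non-overlap nor the test at 6 h counts as support. The mean difference at 6 h was -1.70 ± 0.50 (interval -2.81 to -0.60), adjusted p = 0.0944 by limma. With another background correction (normexp, offset 50) the same difference was -0.51, so its size rests on how dim signals are treated.

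**Figure D1:**
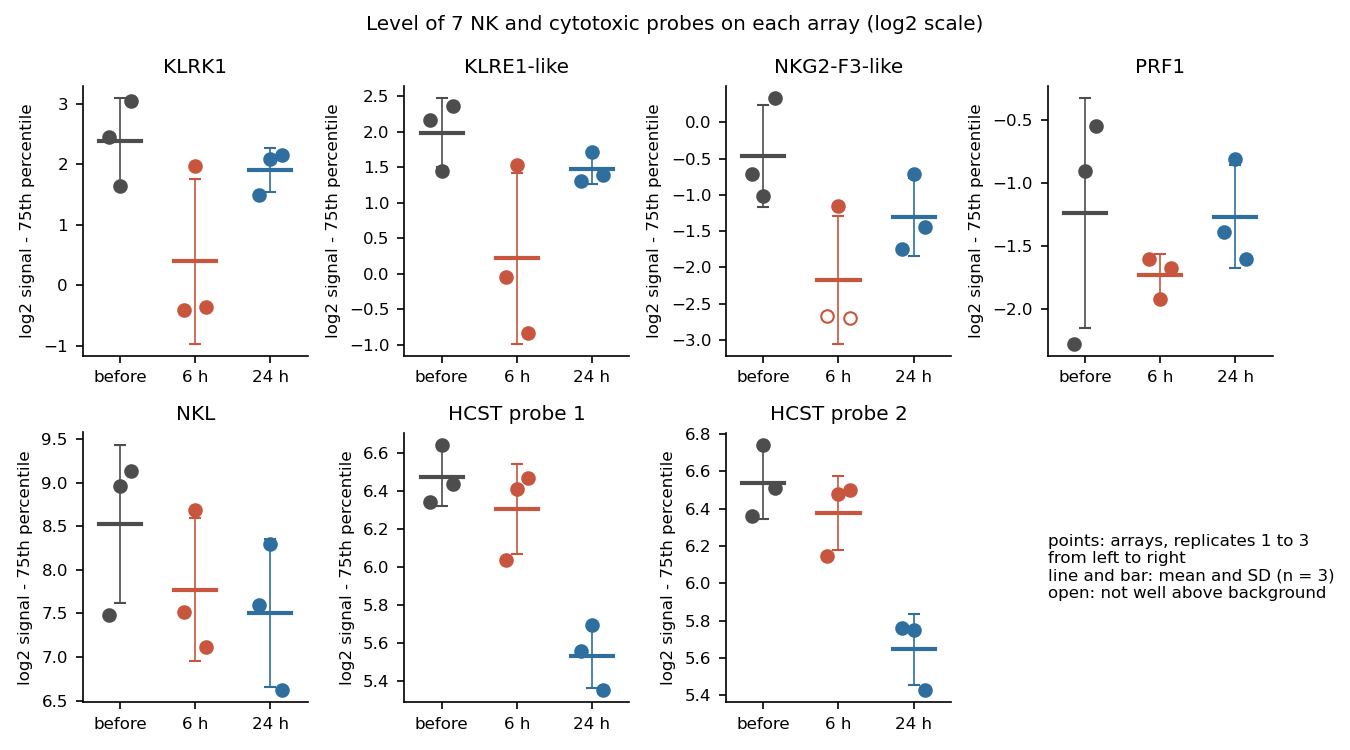
Level of each of the 7 detected probes (log2 processed signal minus the array's 75th percentile, y axis) on each of the 9 arrays by time (x axis); points are arrays, replicates 1 to 3 from left to right, open where not well above background, and lines with bars are group means with SD (n = 3). For KLRK1, KLRE1-like and NKG2-F3-like, replicates 1 and 3 at 6 h are the lowest arrays, and for both HCST probes the 3 arrays at 24 h lie below all others.

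Across the 7 tested members, 0 passed an adjusted p of 0.05 at 6 h, where 0.0253% of all tested probes did (5 probes, all higher). In limma's unadjusted test KLRK1, KLRE1-like and the dim NKG2-F3-like had a p under 0.05, all as lower, against 10.9% of all probes lower at that p. All 7 values were below 0, as were 47.4% of all tested probes; the median was -0.75 for the members and 0.05 for all. Among the 6 members well above background on all 9 arrays, all 6 values were below 0, with a median of -0.62 against 0.03 for all such probes. These counts share HCST between a pair of probes, and NKG2-F3-like entered through the times at which it was bright.

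The result for the receptors turned on 1 sample. Without replicate 2 at 6 h, KLRK1 was lower by limma at -2.77 (adjusted p = 0.0191) and KLRE1-like at -2.42 (adjusted p = 0.0191). NKG2-F3-like was then at -2.21 (adjusted p = 0.0243), but neither of its remaining arrays at 6 h was well above background, so that p supports nothing. In that reduced fit 4.75% of all 20625 tested probes passed as lower. Between 24 h and 6 h, 2 members then passed as higher, KLRK1 at 2.30 (adjusted p = 0.0273) and KLRE1-like at 1.91 (adjusted p = 0.0283), against 2.36% of all probes. Replicate 2 held the highest receptor values at 6 h, so leaving it out could only enlarge these differences. No p-value from that reduced fit therefore counts as support. With replicate 1 at 6 h left out in place of replicate 2, KLRK1 was at -1.57, and with replicate 3 left out at -1.60, neither past the threshold.

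**Figure D2:**
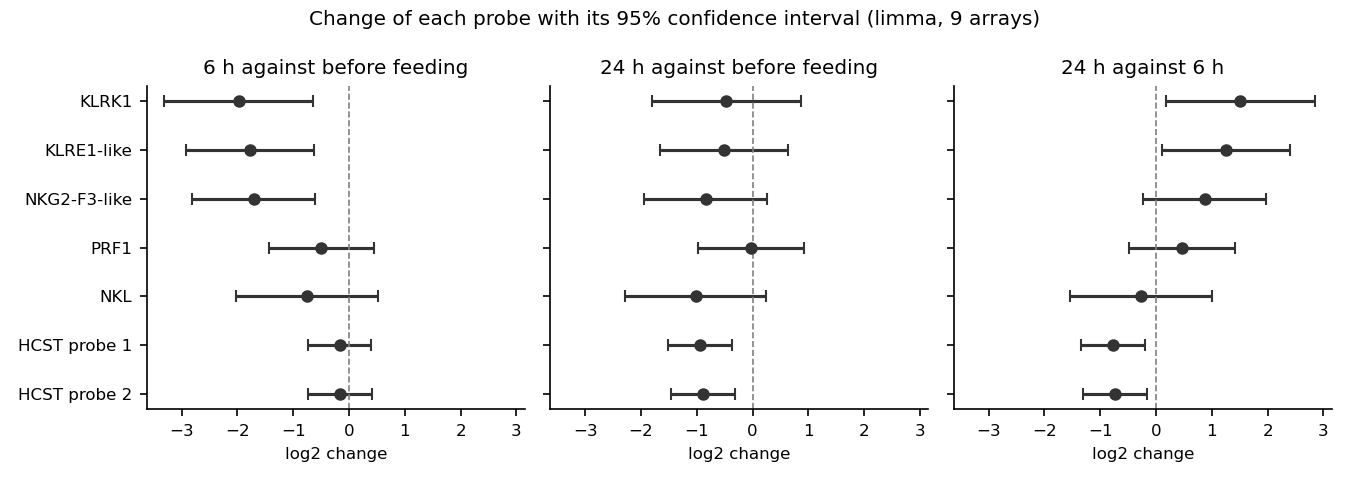
Difference of each of the 7 detected probes (log2 scale, x axis) in each of the 3 comparisons, with points for the limma estimate and bars for its 95% confidence interval. The intervals of KLRK1 and KLRE1-like exclude 0 at 6 h, as does that of NKG2-F3-like, which was well above background on 1 of 3 arrays there, and the HCST intervals exclude 0 at 24 h, but none passed after adjustment over all tested probes.

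HCST, the adaptor through which KLRK1 signals, followed another course. Its levels stayed near those before feeding at 6 h and were lowest at 24 h. The first probe read 6.35, 6.64 and 6.44 before feeding, 6.04, 6.41 and 6.47 at 6 h, and 5.56, 5.69 and 5.35 at 24 h. All samples at 24 h lay below all samples of both other times, and the samples before feeding and at 6 h overlapped. Means were 6.48 ± 0.15, 6.31 ± 0.24 and 5.54 ± 0.17 (SD, n = 3).

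By limma the first HCST probe differed by -0.94 ± 0.26 at 24 h against before (interval -1.51 to -0.37), 1.92-fold lower, adjusted p = 0.239. The second probe gave -0.89 ± 0.26 (interval -1.46 to -0.32), 1.86-fold lower, adjusted p = 0.240. Between 24 h and 6 h the values were -0.77 and -0.73, with adjusted p of 0.143 and 0.154. At 6 h they were -0.17 and -0.16, with adjusted p of 0.710 and 0.722. Neither difference passed the threshold, and in the order before, 6 h, 24 h no neighbouring pair did.

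The unscaled HCST signals overlapped between all times. The first probe's processed intensity was 6643, 5525 and 8108 before feeding, 5999, 5113 and 8371 at 6 h and 5324, 5654 and 8427 at 24 h. The 75th percentile by which each array is scaled was 5.79 to 6.55 (log2 intensity) before feeding and 6.77 to 7.69 at 24 h. When arrays were instead centred on the spike-in probes, the HCST difference at 24 h was 0.06 and 0.11 for the 2 probes, while the median of all tested probes moved to 0.99. HCST was thus lower at 24 h relative to the other probes of its array. Under spike-in centring its own difference was smaller than its SE (0.32 and 0.31 for the 2 probes), so it had no clear direction. With quantile scaling the first probe was already at -0.53 at 6 h, then at -0.78 at 24 h, both against before. Its value between 24 h and 6 h was then -0.24. The deposited series-wide values gave -0.51, -0.76 and -0.24. How much of the HCST difference is present at 6 h therefore depends on the scaling.

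At 24 h against before, 0 of 7 members passed the adjusted threshold by limma, as did 0% of all tested probes. In the unadjusted test 2 members had a p under 0.05, the 2 HCST probes, against 8.56% of all probes as lower. The samples of those same probes did not overlap between the times, as was so in the lower direction for 19% of all probes. All 7 values were below 0 with a median of -0.84 (50.9% of all probes were below 0, median -0.01), but 6 of the 7 were above 0 under spike-in centring. Between 24 h and 6 h, 0 of 7 passed (0% of all), 4 had an unadjusted p under 0.05 (21.6% of all), namely KLRK1 and KLRE1-like as higher (7.97% of all) and the HCST probes as lower (13.6% of all). In that comparison 3 probes did not overlap (26.5% of all), both HCST probes lower (16.5%) and PRF1 higher (10%), and 3 of 7 values were below 0 (56.3% of all).

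Neither granule protein probe passed the threshold in any comparison. PRF1, which encodes the pore-forming protein perforin, read -2.28, -0.90 and -0.54 before feeding, -1.61, -1.92 and -1.67 at 6 h, and -1.39, -0.81 and -1.61 at 24 h. The lowest array was replicate 1 before feeding, and that group spanned all the others. The difference at 6 h was -0.49 ± 0.43 (interval -1.44 to 0.45), adjusted p = 0.483 by limma. It was -1.01 without replicate 1 before feeding (adjusted p = 0.231) and -0.15 without replicate 3 before feeding (adjusted p = 0.884). At 24 h it was -0.03 ± 0.43 (interval -0.97 to 0.92), adjusted p = 0.986 by limma, an interval that still allows differences of nearly 1 log2 unit either way. All samples at 24 h lay above all samples at 6 h, by 0.47 in the mean (adjusted p = 0.565). PRF1 signals were dim, at 15.8 to 67.7 processed intensity over the 9 arrays.

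NKL, the probe for NK-lysin, a membrane-lysing peptide stored in cytotoxic granules, read 7.49, 8.96 and 9.13 before feeding. At 6 h it read 7.52, 8.69 and 7.11, and at 24 h 7.60, 8.30 and 6.62. Samples of every time covered more than 1 log2 unit, and the 3 ranges overlapped. Means were 8.53 ± 0.91, 7.77 ± 0.82 and 7.51 ± 0.84 (SD, n = 3), so that the spread within a time was as large as the differences between times. The differences were -0.75 ± 0.57 at 6 h (interval -2.02 to 0.51, adjusted p = 0.424 by limma) and -1.02 ± 0.57 at 24 h (interval -2.29 to 0.25, adjusted p = 0.454). The value at 24 h ranged from -1.54 without replicate 1 before feeding (adjusted p = 0.360) to -0.58 without replicate 3 at 24 h (adjusted p = 0.696), and that at 6 h from -1.28 to -0.43 when single arrays were left out. Between 24 h and 6 h the value was -0.27 (adjusted p = 0.836), and its sign turned under 4 other ways of processing the 9 arrays.

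**Figure D3:**
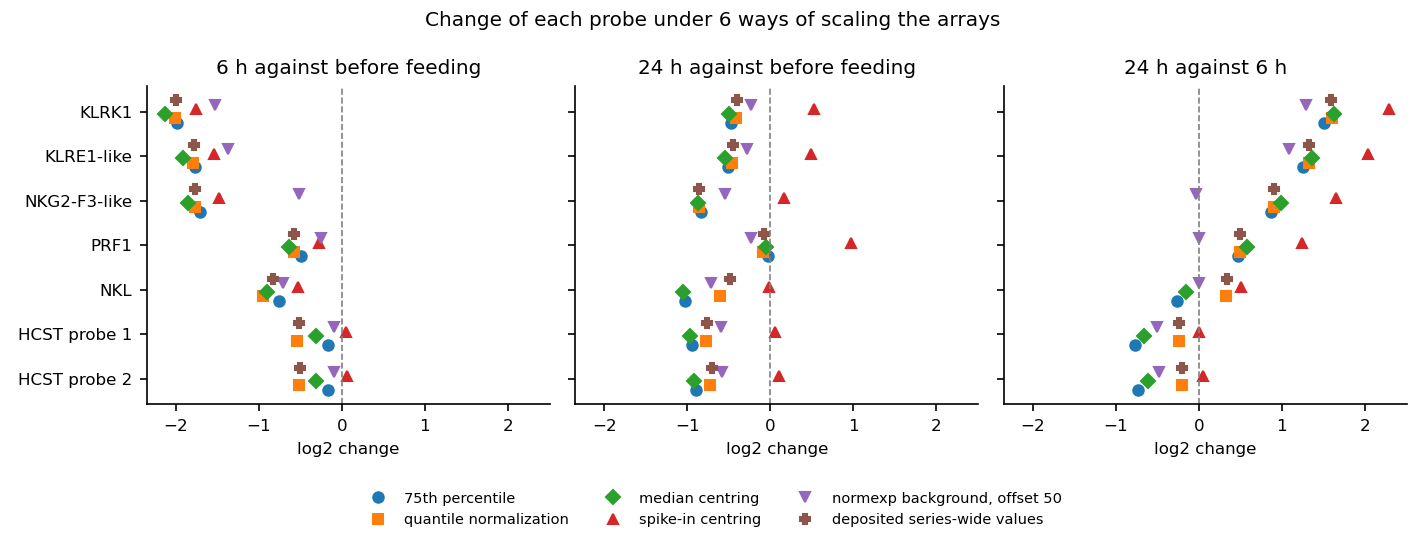
Difference of each detected probe (log2 scale, x axis) in each comparison under 6 ways of scaling the arrays, 1 marker shape per way. The receptor values at 6 h are below 0 under all 6, whereas under spike-in centring most values at 24 h lie at or above 0.

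Members fell into sets by how they varied over the 9 arrays. KLRK1 and KLRE1-like had a Pearson r of 0.97 (Spearman rho 0.88), KLRK1 and NKG2-F3-like 0.94 (rho 0.83), and KLRE1-like and NKG2-F3-like 0.92 (rho 0.97). After each time's mean was taken out, these were 0.92, 0.91 and 0.85. The spread of KLRK1 was largest at 6 h (SD 1.36, against 0.71 before feeding and 0.36 at 24 h), where replicate 2 stood apart. These r therefore cannot show that the receptors varied together at each time. NKG2-F3-like, in the last 2 of them, was not well above background in replicates 1 and 3 at 6 h. The points share their arrays and scaling, and n = 9. KLRK1 and its adaptor HCST had r of -0.07 and -0.09 for the 2 HCST probes. KLRK1 had r of 0.27 with PRF1 and 0.44 with NKL, and PRF1 and NKL had 0.59 with each other.

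Replicates 1 and 3 at 6 h had the lowest receptor levels and the lowest mean log2 levels of T cell markers. Their mean neutrophil and monocyte marker levels were the highest of the 9 arrays. Levels of B cell, platelet and red cell markers were less closely related to the receptors in r. Of 15 T cell markers, 8 had a probe and all 8 were tested: at 6 h 7 were below 0 and 1 above, the median was -0.75, and 0 passed the adjusted threshold (5 at an unadjusted p under 0.05, all lower). Of all tested probes, 47.4% were below 0 and 52.6% above at 6 h. In limma's unadjusted test 10.9% had a p under 0.05 as lower and 14.7% as higher. CD3G, a chain of the T cell receptor complex, was at -1.80, CD3D at -1.30 and CD8A, the co-receptor of cytotoxic T cells, at -1.16. Before feeding, the T cell markers' summed scaled signal ranged from 135 to 164; the range was 42.3 to 107 at 6 h, then 85.5 to 105 at 24 h. Of 16 neutrophil markers 5 were tested, all 5 above 0 at 6 h with a median of 2.03 (0 passed, 3 at an unadjusted p under 0.05), and their sum ranged 188 to 385, 607 to 1721 and 155 to 334 at the 3 times. Of 10 monocyte markers 6 were tested, again all above 0 at 6 h with a median of 2.01 (0 passed, 5 at an unadjusted p under 0.05), with sums of 129 to 171, 340 to 935 and 177 to 408. Marker sums for B cells (2 of 9 tested) were 6.64 to 11.3, 12.5 to 13.8 and 8.05 to 10.7, and for platelets (3 of 8 tested) 33.6 to 186, 87.9 to 166 and 57.4 to 171. The single red cell marker tested of 8 ranged 125 to 182, 91.9 to 171 and 44.3 to 107.

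Within the 6 h group, replicate 2 had receptor levels like those before feeding. It also had the T cell, neutrophil, monocyte and red cell marker levels nearest to theirs, which did not hold for the platelet and B cell markers. Mean log2 levels of the T cell markers were 1.75, 2.33 and 1.12 in replicates 1, 2 and 3 at 6 h, against 2.39 to 2.81 before feeding. Those of the neutrophil markers were 6.32, 5.33 and 7.38, against 3.72 to 4.41 before feeding. Those of the monocyte markers were 5.66, 5.05 and 6.67, against 3.79 to 4.29. The single red cell marker was at 6.78, 7.42 and 6.52, against 6.97 to 7.51. Platelet markers were at 4.64, 5.45 and 4.48, within the 3.40 to 5.68 before feeding, and B cell markers at 1.88, 1.73 and 1.30, against 1.29 to 1.56. Over the 9 arrays KLRK1 had r of 0.92 (rho 0.77) with the T cell marker mean, -0.90 (rho -0.78) with the neutrophil marker mean and -0.74 (rho -0.48) with the monocyte marker mean. KLRE1-like had r of 0.98 (rho 0.68) with T cell and -0.95 (rho -0.73) with neutrophil markers, and NKG2-F3-like 0.86 (rho 0.65) and -0.81 (rho -0.72). The rank correlations were smaller in size than r in each of these pairs, and replicates 1 and 3 at 6 h lie at the end of the range. With B cell, platelet and red cell markers KLRK1 had r of -0.39, -0.05 and 0.12. The corresponding r with the T cell markers was 0.28 for PRF1, 0.45 for NKL, and -0.16 and -0.15 for the HCST probes. The HCST probes and NKL had r of 0.77, 0.80 and 0.83 with the red cell marker. The part of cell composition in any of these differences was not tested.

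**Figure D4:**
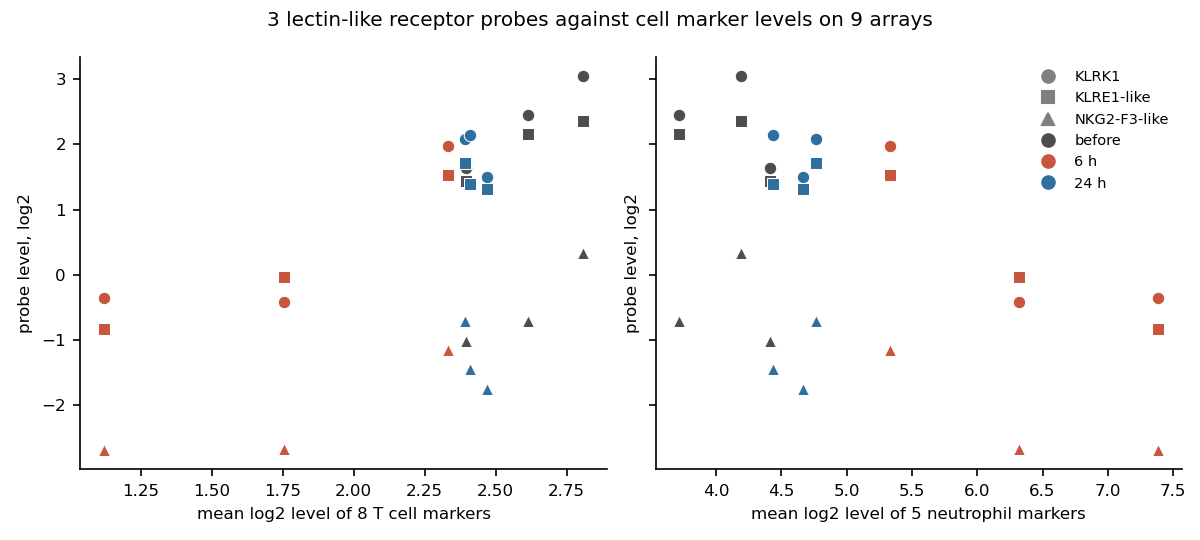
Level of the KLRK1, KLRE1-like and NKG2-F3-like probes (log2, y axes) against the mean log2 level of T cell markers and of neutrophil markers (x axes), 1 point per array and probe with colours for time. The receptors are lowest in replicates 1 and 3 at 6 h, where T cell markers are lowest and neutrophil markers highest. Among the arrays at 24 h, replicate 1 has the highest T cell marker mean and the lowest receptor levels.

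Genes most like the members over the 9 arrays were sought among 1009 genes with a symbol and a probe well above background on all arrays. For KLRK1 they were STMN1 (r = 0.98, rho = 0.85), CD8A (r = 0.96, rho = 0.95) and TOP2A (r = 0.95, rho = 0.97), and 21 genes had r above 0.9. For KLRE1-like they were QDPR, SCG5 and STMN1, with r from 0.97 to 0.96. For the first HCST probe they were COX6B (r = 0.96), ACRBP (r = 0.95) and ST6GALNAC4 (r = 0.93). For NKL they were UCHL1, PGLYRP2 and LOC396781, with r from 0.95 to 0.94. For PRF1 the nearest were FKBP1A (r = 0.84), PTH1R (r = 0.83) and CCL4 (r = 0.83), and 0 genes exceeded 0.9.

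The wider pathway was read through 8 lists arranged by role, and 0 of their tested genes passed the adjusted threshold by limma in any comparison. Of 25 receptors and adaptors, 7 were tested. At 6 h 3 were above 0 and 4 below, with a median of -0.16 (52.6% of all tested probes were above 0). In limma's unadjusted test 2 had a p under 0.05 as lower and 3 as higher, against 10.9% and 14.7% of all. TYROBP (DAP12), the adaptor of activating NK and myeloid receptors, was at 1.42 (adjusted p = 0.0938) with no overlap between groups (16% of all tested probes as higher), opposite in sign to KLRK1. FCGR3A, the Fc receptor CD16 of NK cells, neutrophils and monocytes, was at 0.72 (adjusted p = 0.141). SH2D1A, the adaptor SAP of T and NK cells, was at -1.23 (adjusted p = 0.121). At 24 h against before 1 was above 0 and 6 below, with a median of -0.42 (50.9% of all were below 0). SH2D1A was at -0.89 and FCGR3A at -0.42. Between 24 h and 6 h FCGR3A was at -1.14 (adjusted p = 0.112) and TYROBP at -1.51 (adjusted p = 0.113).

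Granule contents and their inhibitors had 3 tested genes of 16. All 3 were below 0 at 6 h (median -0.49) and at 24 h (median -0.47), with 0 at an unadjusted p under 0.05. Below 0 were also 47.4% of all tested probes at 6 h and 50.9% at 24 h. SERPINB9, the granzyme B inhibitor that protects the killer cell itself, was at -0.32 and -0.47. The exocytosis machinery had 4 tested genes of 12, all above 0 at 6 h with a median of 0.70 (2 at an unadjusted p under 0.05). Of all tested probes, 52.6% were above 0 at 6 h and 14.7% had an unadjusted p under 0.05 as higher. LYST, which is needed for granule sorting, was at 1.19 (adjusted p = 0.109) and LAMP1, the degranulation marker CD107a, at 1.35 (adjusted p = 0.137). Both are also expressed by myeloid cells. At 24 h LAMP1 was at 1.12 (adjusted p = 0.354).

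Signalling below the receptors had 2 tested genes of 14. SYK, a kinase recruited by TYROBP and other ITAM adaptors, was at 1.12 at 6 h (adjusted p = 0.131) and at -1.40 between 24 h and 6 h (adjusted p = 0.118), and FYN was at 0.07 at 6 h. Death ligands and cytokines of cytotoxic cells had 6 tested genes of 10, 3 above and 3 below 0 at 6 h. In limma's unadjusted test 2 had a p under 0.05, both lower, against 10.9% of all tested probes as lower. CCL5, a chemokine released by cytotoxic T and NK cells, was at -1.48 at 6 h (adjusted p = 0.148) and -1.57 at 24 h (adjusted p = 0.288). LTA, lymphotoxin alpha, was at -0.71 (adjusted p = 0.123) and -0.97 (adjusted p = 0.222), with no overlap between groups at either time (10.6% of all tested probes as lower at 6 h and 19% at 24 h). TNF, the cytokine tumour necrosis factor, was on the other side at 0.58 (adjusted p = 0.200) and 0.51 (adjusted p = 0.414), also with no overlap at either time (16% and 7.5% of all as higher).

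Cytokines and receptors that activate NK cells had 6 tested genes of 18, 5 above 0 and 1 below at 6 h with a median of 0.91. In limma's unadjusted test 4 had a p under 0.05, 3 as higher and 1 as lower. Of all tested probes, 14.7% did so as higher and 10.9% as lower, and 52.6% were above 0. IL2RG, the common chain of the IL-2 and IL-15 receptors, was at 1.80 (adjusted p = 0.0755), STAT5B, which carries that signal, at 1.65 (adjusted p = 0.102), and STAT4, which carries the IL-12 signal, at -1.13 (adjusted p = 0.105). None of these 3 overlapped between groups, as was so for 16% of all tested probes as higher and 10.6% as lower. Ligands of NK receptors had 3 tested genes of 15, all above 0 at 6 h with a median of 0.79 (2 at an unadjusted p under 0.05): ULBP1, a ligand of NKG2D, at 1.31 (adjusted p = 0.109), and the MHC class I genes SLA-3 at 0.79 (adjusted p = 0.179) and SLA-1 at 0.37 (adjusted p = 0.532). ULBP1, which is 1 of those 2, was dim, with mean levels of -2.94 before feeding and -1.63 at 6 h. It may have been tested only through the times at which it was brighter, so its difference counts as no support. MHC class I genes resemble each other closely, so their probes may share transcripts. Of 11 transcription factors 1 was tested, ID2, at 0.34 at 6 h (adjusted p = 0.678).

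**Figure D5:**
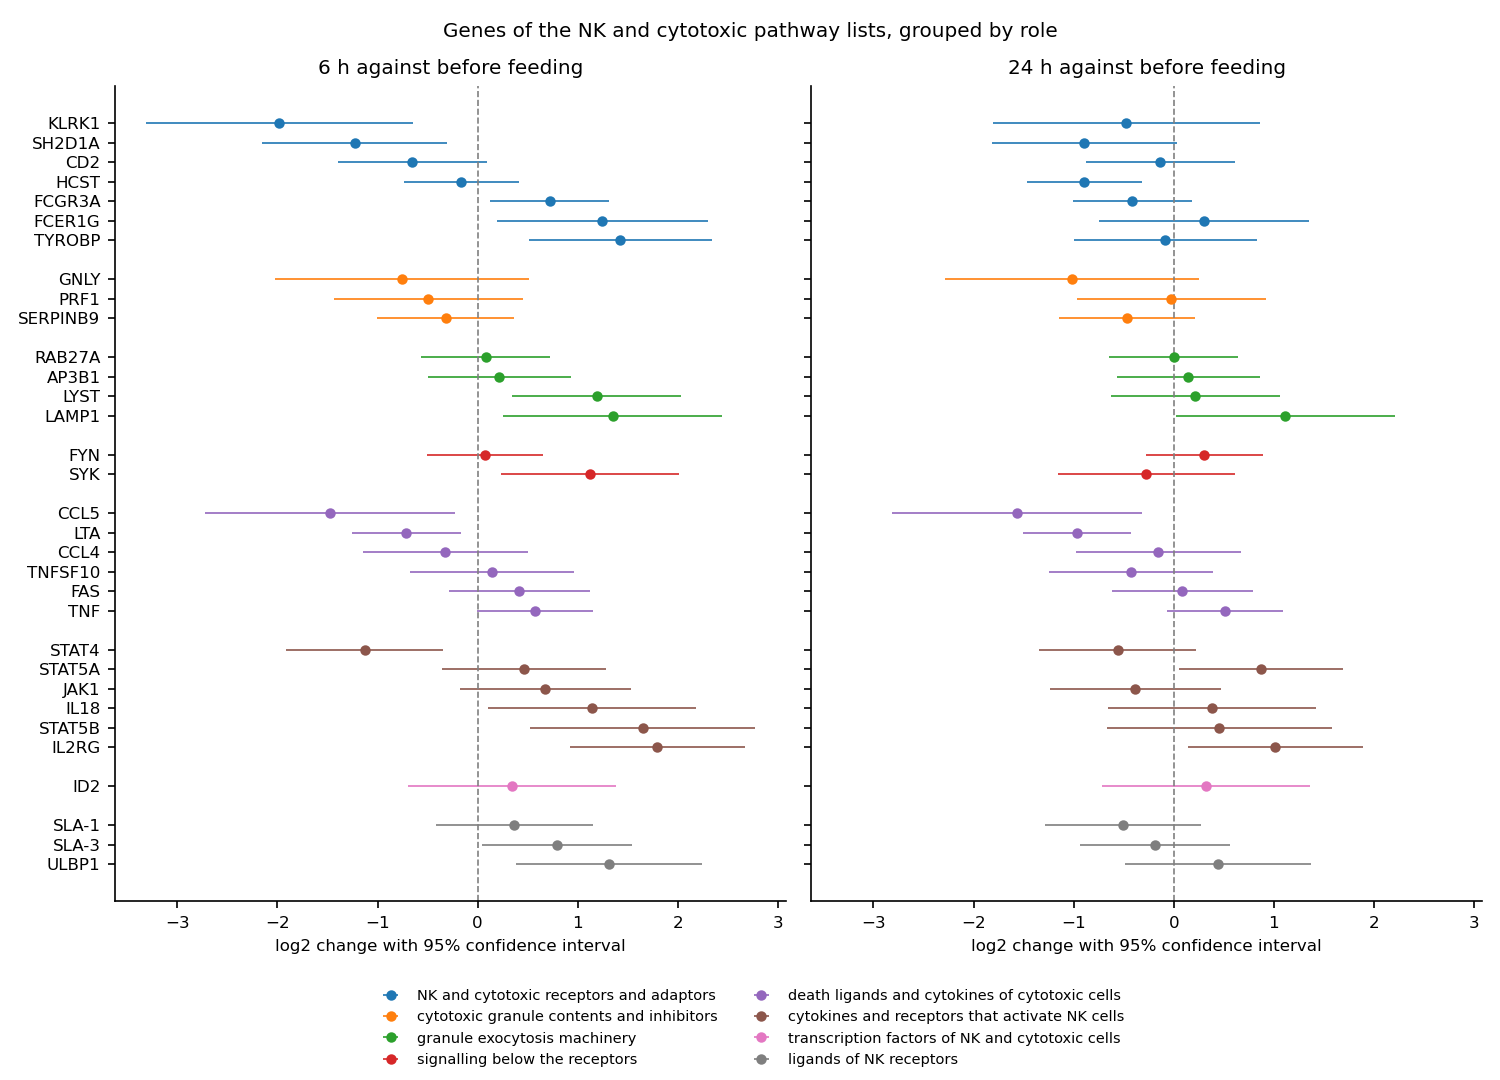
Difference of each tested gene of the pathway lists (log2 scale, x axis) at 6 h and at 24 h against before feeding, grouped by role, with bars for the 95% confidence interval. At 6 h KLRK1, SH2D1A, CCL5 and STAT4 lie on the lower side and TYROBP, SYK, LYST and IL2RG on the higher side, and no gene passed the adjusted threshold.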

How the data were processed

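The deposited values were 1-colour (Cy3) Agilent scanner files of 9 whole-blood RNA samples, 3 per time, made from 0.5 µg RNA per the labels' protocols. Feature Extraction is given as version 10.5.1.1 per the file headers and 9.5.3.1 per the submitters' processing notes. The processed signal is a linear intensity that Feature Extraction had background-corrected, per the file headers. The deposited series-wide table was used as an alternative; its linear intensity values share 1 distribution across arrays, set by a method not given in the sources used here.

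Outlier spots were left out, spots of 1 probe were averaged, and log2 intensity minus each array's 75th percentile was fitted with limma 3.58.1 in R 4.3.3 (lmFit, eBayes, 3 groups, 9 arrays, 6 residual degrees of freedom). Adjustment was by Benjamini-Hochberg over 19783 probes, with a threshold of 0.05. Symbols came from the files' gene names and RefSeq (2862 probes, 1850 symbols), with the brightest probe for a gene. The steps were tested on simulated data. Alternatives were quantile, median and spike-in scaling (7 probes), normexp, other filters, the arrays compared alone, trended moderation, a replicate block and leaving out each array.

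The members and lists were chosen with earlier results of these data known. Named list genes were up to 3 per list and comparison, by smallest p where none passed; like genes were the 3 of highest r. T cell and other marker genes are examples chosen after their values were seen. Deviations of samples numbered 1, 2 and 3 correlated at r of -0.15, -0.20 and 0.11 between before and 6 h, -0.07, 0.64 and 0.22 between before and 24 h, and 0.54, 0.08 and 0.45 between 6 h and 24 h. In each comparison at least 1 number was not above 0.1, so numbers were not taken as pairs.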

Additional observations from a re-analysis of the deposited data

How the results depend on the processing

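Under every setting that kept all arrays of the groups compared, 0 member probes passed the threshold in any comparison. Leaving out 1 array at a time gave 0 to 3 members past it at 6 h and 0 to 2 between 24 h and 6 h, the higher counts coming without replicate 2 at 6 h (1 of the 3 is NKG2-F3-like, not well above background on either 6 h array left). The higher counts are no support, since replicate 2 held the highest receptor values at 6 h. In the fits with 1 array left out PRF1 at 24 h ranged from -0.54 to 0.32 and NKL between 24 h and 6 h from -0.66 to 0.19. Of 189 such values, 178 kept their sign and side. With the replicate number as a block, 0 members passed, KLRK1 at 6 h was at -1.98 (adjusted p = 0.0930 by limma) and 620 of all probes passed in place of 5; all 21 member values kept their sign. Signs turned most under spike-in centring, for 11 of 21 values, since the median of all tested probes moved to 0.27 at 6 h, 0.99 at 24 h and 0.69 between 24 h and 6 h (613, 5821 and 0 probes passed). The HCST probes were then at 0.057 and 0.064 at 6 h, 0.064 and 0.11 at 24 h, and 0.0066 and 0.048 between 24 h and 6 h. At 24 h KLRK1 was at 0.53, PRF1 at 0.98, KLRE1-like at 0.49 and NKG2-F3-like at 0.17, and NKL between 24 h and 6 h at 0.51. The NKL value between 24 h and 6 h was 0.33 with quantile scaling, 0.34 with the deposited series-wide values and 0.0012 with normexp, where NKG2-F3-like was at -0.037. Quantile scaling called 8, 6 and 0 probes at the 3 comparisons, and normexp, no filter, the stricter filter, the compared arrays alone and trended moderation called 0 in each. Median centring, no filter, the compared arrays alone and trended moderation kept the sign and side of all 21 values, and the stricter filter of its 18. With 3 arrays a group, precision is limited by their number, and dim probes such as PRF1 and NKG2-F3-like also by background.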

Other observations

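A probe outside the naming rule, described as resembling bovine natural killer cell receptor protein 1, was picked out after its values were seen. It read 1.24, 1.50 and 2.11 before feeding, -1.39, 1.12 and -0.72 at 6 h, and -0.15, 0.88 and 0.33 at 24 h (log2 level). All samples at 6 h lay below all those before feeding, as was so for 10.6% of all tested probes. Replicate 2 was again the highest of its time. The difference at 6 h was -1.95 ± 0.57 (adjusted p = 0.0944 by limma), and at 24 h -1.26 ± 0.57 (adjusted p = 0.359). A further probe, with a partial match to natural cytotoxicity triggering receptor 2, was well above background on the 3 arrays at 24 h alone, so no fold is given for it.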
